A study of Mus musculus with 4 samples.

Results

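The early secretory pathway and the folding machinery of the endoplasmic reticulum (ER) were followed through 4 RNA libraries of cultured mouse dorsal root ganglia, which hold the cell bodies of sensory neurons with their glia. Members were taken by gene symbol alone: the COPI coat genes Copa to Copz2, the Sec61, Sec62, Sec63, Sec11, Sec13, Sec16, Sec22, Sec23, Sec24 and Sec31 families, and the Tmed, Ssr, Spcs, Pdia and Rcn families with Calr, Canx and P4hb. This gave 60 of the 23282 rows of the count tables. The libraries were ES at 19 days in vitro (DIV), control at 19 DIV, ES at 11 DIV and control at 11 DIV, where ES is electrical stimulation at 20 Hz and 50 mV/mm for 1 h on DIV 10 and controls had none. All 4 came from C57BL/6 embryos of embryonic day 13, whose ganglia grew on Matrigel in growth medium to DIV 8 and in myelination medium thereafter. Each library pooled the RNA of 3 explants and was the only library of its group, so no difference between 2 libraries has a replicate check. The explants hold neurons, Schwann cells, fibroblasts and other cells together, and fewer cells of a type cannot be told apart from less RNA per cell.

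Proteins that a cell secretes or places in membranes enter the ER through the Sec61 channel, where signal peptidase removes their signal peptide. Lectin chaperones and protein disulfide isomerases fold them. COPII-coated vesicles then carry them to the Golgi, p24 cargo receptors of the Tmed family help to sort them, and COPI-coated vesicles bring escaped ER proteins back. In peripheral nerve this route serves collagen and basal lamina secretion by fibroblasts and Schwann cells, the synthesis of myelin membrane proteins, and the neuropeptides and membrane proteins of sensory neurons. When unfolded proteins build up in the ER, the unfolded protein response raises many of the folding genes through promoter elements, of which the ER stress response element (ERSE) is the best known.

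The promoters of 6 folding genes are shown first, because the ERSE is the regulatory sequence best known for this gene group. The levels of these 6 genes are given below. Each is the 250 bases before the gene's start in RefSeq (GRCm38.p6), 5' to 3' on the gene's strand. In Calr, Canx and Pdia6 capitals mark an exact ERSE, which is CCAAT, then any 9 bases, then CCACG, on either strand. In Pdia3, Pdia4 and Rcn3, which held no exact ERSE in these bases, capitals mark its outer letters alone, CCAAT or CCACG, also on either strand. The last CCAAT of Pdia3 is followed after 9 bases by ccaca, and the ATTGG of Pdia4 stands 9 bases after agtgg. Each of these differs from an exact ERSE in a single letter, and near matches were not counted in the shares below.
Calr (chr8:84846932-84847181, minus strand): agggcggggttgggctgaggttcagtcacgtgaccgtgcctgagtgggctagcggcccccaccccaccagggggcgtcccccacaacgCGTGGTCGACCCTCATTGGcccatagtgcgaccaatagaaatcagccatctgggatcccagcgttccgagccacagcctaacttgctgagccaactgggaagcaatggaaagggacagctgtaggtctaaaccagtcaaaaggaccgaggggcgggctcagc
Canx (chr11:50325674-50325923, minus strand): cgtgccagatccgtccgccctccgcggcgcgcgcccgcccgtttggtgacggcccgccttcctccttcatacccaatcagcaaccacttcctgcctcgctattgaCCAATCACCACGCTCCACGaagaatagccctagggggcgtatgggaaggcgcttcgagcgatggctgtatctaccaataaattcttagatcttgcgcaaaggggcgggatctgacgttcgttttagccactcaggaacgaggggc
Pdia6 (chr12:17266339-17266588, plus strand): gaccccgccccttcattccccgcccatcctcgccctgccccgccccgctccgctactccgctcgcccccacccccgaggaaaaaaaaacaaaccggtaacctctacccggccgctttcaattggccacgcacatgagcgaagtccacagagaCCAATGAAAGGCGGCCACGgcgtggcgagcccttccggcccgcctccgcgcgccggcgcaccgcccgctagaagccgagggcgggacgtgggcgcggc
Pdia3 (chr2:121413652-121413901, plus strand): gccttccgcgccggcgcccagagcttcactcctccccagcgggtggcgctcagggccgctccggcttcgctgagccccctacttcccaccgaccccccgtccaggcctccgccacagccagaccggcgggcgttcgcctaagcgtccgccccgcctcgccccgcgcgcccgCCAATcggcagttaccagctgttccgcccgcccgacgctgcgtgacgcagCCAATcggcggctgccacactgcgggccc
Pdia4 (chr6:47813513-47813762, minus strand): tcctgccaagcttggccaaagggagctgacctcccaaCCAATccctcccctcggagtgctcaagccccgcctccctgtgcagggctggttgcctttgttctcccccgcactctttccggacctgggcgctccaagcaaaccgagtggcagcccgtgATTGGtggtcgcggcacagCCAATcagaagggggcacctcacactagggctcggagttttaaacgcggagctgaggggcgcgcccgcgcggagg
Rcn3 (chr7:45092214-45092463, minus strand): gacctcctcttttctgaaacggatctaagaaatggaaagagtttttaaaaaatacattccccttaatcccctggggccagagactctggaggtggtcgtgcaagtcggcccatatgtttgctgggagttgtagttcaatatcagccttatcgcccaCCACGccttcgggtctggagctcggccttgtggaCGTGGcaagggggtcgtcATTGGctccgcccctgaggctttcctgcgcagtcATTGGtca
The table of promoters held 52 of the 60 genes. An exact ERSE was present in 3 of these 52 (5.77%), against 35 of the 27025 genes in the table (0.13%). The match lay 162 to 144 bases before the start in Calr, 145 to 127 in Canx and 98 to 80 in Pdia6. A second element of the unfolded protein response, TGACGTGG on either strand (UPRE, whose CGTGG is the reverse complement of CCACG), was present in Copb1, Sec24d and Sec16b, again 3 of 52, against 163 of 27025 genes (0.603%). The outer letters alone were common: CCAAT was present in 26 of the 52 and in 37.5% of all genes, and CCACG in 34 of the 52 and in 31% of all genes. A match is a description of the letters and not evidence of a used site.

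Totals ranged from 5782834 to 7830950 reads. Levels are given as CPM, reads scaled to a common library total, after normalisation with the trimmed mean of M-values (TMM). The reads were tags from the 3' ends of transcripts, so a level is not divided by gene length and levels are compared here within a gene only. A comparison counted a gene as higher or lower by size when its CPM differed at least 2-fold, the exact 95% interval on the 2 counts excluded equality and the higher library had at least 50 reads. Libraries differed by far more than counting error: among genes with a mean of 500 to 3000 reads, the median squared difference between 2 libraries was 209 to 260 times what separately counted reads would give. Without replicates, this factor includes any difference between the cultures as well as technical spread. Intervals printed below are spread-adjusted, which means that counts were divided by this factor before the exact 95% interval was taken. A call by the spread-adjusted rule asked for a 99% interval of this kind and the same 2-fold and 50-read limits. In every such interval the error is that of 2 libraries, not of conditions. The interval of a sum of genes also takes the genes as varying separately. It is too narrow where the genes of a list move together.

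Of the 60 genes, 5 had no read in any library: Sec16b, Sec31b, Pdia2, Tmed6 and Tmed11. The other 55 had at least 50 reads in 1 library or more, 47 had reads in all 4 libraries, and 29 averaged 500 reads or more. Together the 60 genes took 0.994% of all reads in the ES library and 0.94% in the control library of 19 DIV, and 0.792% in the ES library and 0.743% in the control library of 11 DIV. Their summed level was 9744 CPM in ES at 19 DIV, 9183 CPM in control at 19 DIV, 7733 CPM in ES at 11 DIV and 7945 CPM in control at 11 DIV. The sum was 1.26 times as high at 19 as at 11 DIV in ES cultures (1.04 to 1.53) and 1.16 times in control cultures (0.959 to 1.39). Between ES and control the ratio was 0.973 at 11 DIV (0.804 to 1.18) and 1.06 at 19 DIV (0.9 to 1.25). Thus the intervals of both stimulation ratios included equality, and of the day ratios that in ES cultures did not. A sum weighs genes with many reads most: in ES cultures Pdia3 went from 729 to 1272 CPM and Calr from 525 to 934 CPM. By the size rule 8 of 51 genes were higher and 10 lower there, against 30.9% and 30.5% of all genes. The ratio of the sums is therefore not a shift of the 60 genes together.

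**Figure D1:**
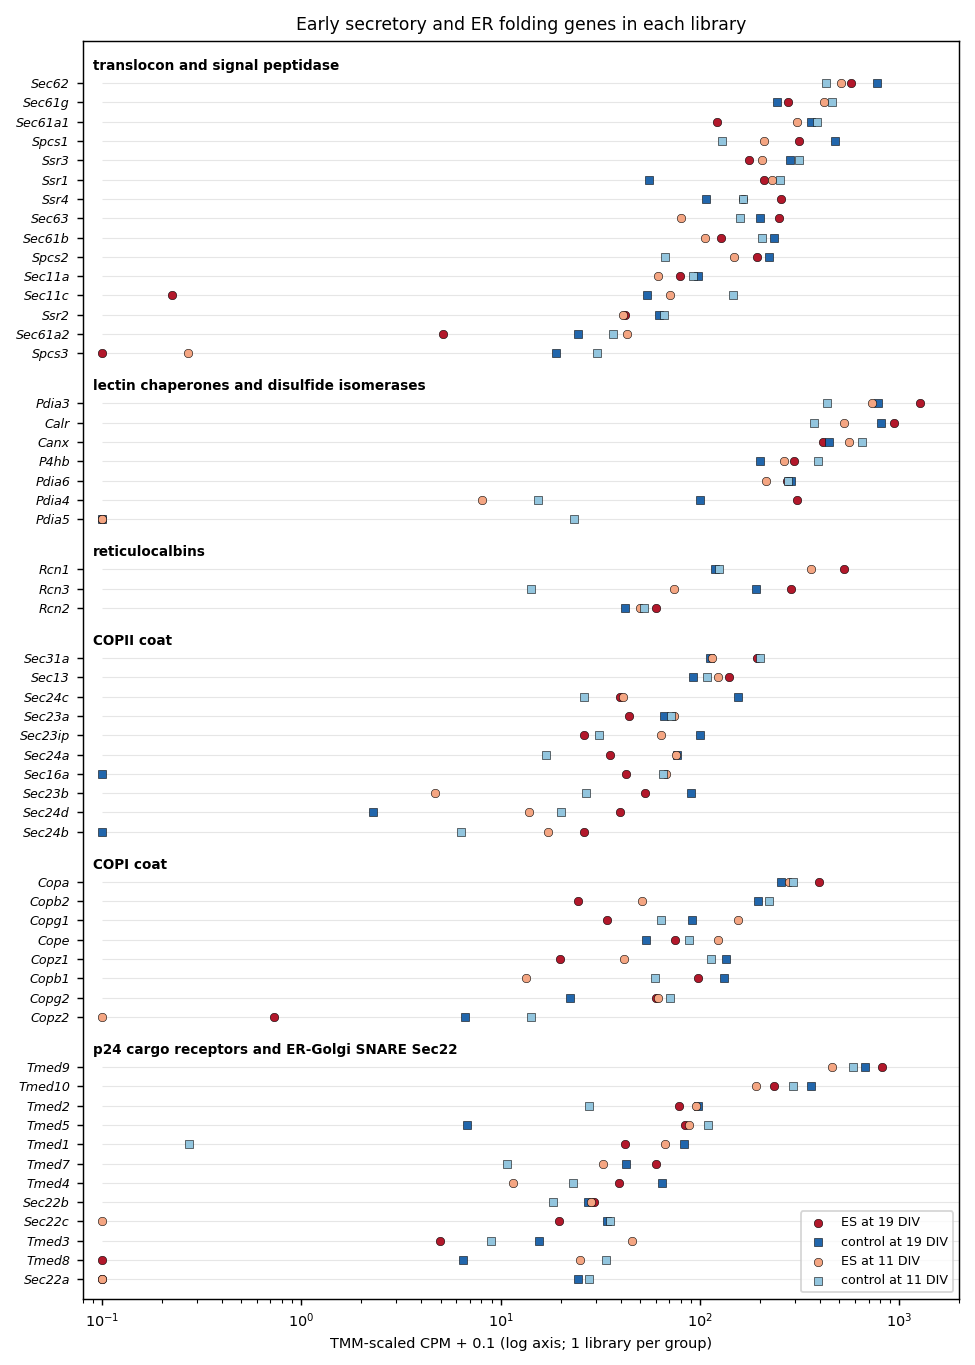
TMM-scaled CPM of the 55 genes with at least 50 reads in a library, plus 0.1 and on a log axis, 1 point per library and 1 row per gene, grouped by role. The points of Canx lie close together at 416 to 646 CPM, those of Rcn1 spread over 119 to 529 CPM, and those of Sec11c run over 0.125 to 146 CPM.

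The gene with the clearest difference between ES and control was Rcn1, a calcium-binding protein of the ER lumen (chromosome 2, 105386291 to 105399319, minus strand, GRCm38). Rcn1 had 529 CPM (4222 reads) in ES at 19 DIV, 119 CPM (817 reads) in control at 19 DIV, 359 CPM (2129 reads) in ES at 11 DIV and 125 CPM (724 reads) in control at 11 DIV. The ES libraries lay above the control libraries on both days, and the 2 controls were close to each other. At 19 DIV the level was 4.46 times that of control (1.38 to 20.6), past the spread-adjusted rule, and it was the only one of the 60 genes to pass that rule in any of the 4 comparisons. With the spread factor taken from genes with a mean of 200 to 1000 reads, 258 instead of 236, Rcn1 no longer passed. At 11 DIV it was 2.88 times that of control (0.79 to 14.1).

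The 2 other reticulocalbins are related calcium-binding proteins of the secretory pathway. Rcn3 (chromosome 7, 45082913 to 45092221, minus strand), whose promoter is given above, had 285 CPM in ES at 19 DIV, 190 CPM in control at 19 DIV, 73.8 CPM in ES at 11 DIV and 14.2 CPM in control at 11 DIV. The 2 later libraries were the highest, and ES was above control on each day. The later level was 13.4 times the earlier one in control cultures with a lower interval end of 0.739 and 3.86 times in ES cultures (0.723 to 49.0). Rcn2 stayed between 41.8 and 60 CPM in the 4 libraries. The summed level of the 3 genes was 2.49 times that of control at 19 DIV (1.19 to 5.68; 873 CPM in ES and 350 CPM in control) and 2.52 times at 11 DIV (0.873 to 8.63; 483 CPM in ES and 191 CPM in control). Rcn1 made up 529 CPM of the ES sum and 119 CPM of the control sum at 19 DIV. At 11 DIV it made up 359 CPM and 125 CPM. The summed ratios thus largely repeat that of Rcn1.

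**Figure D2:**
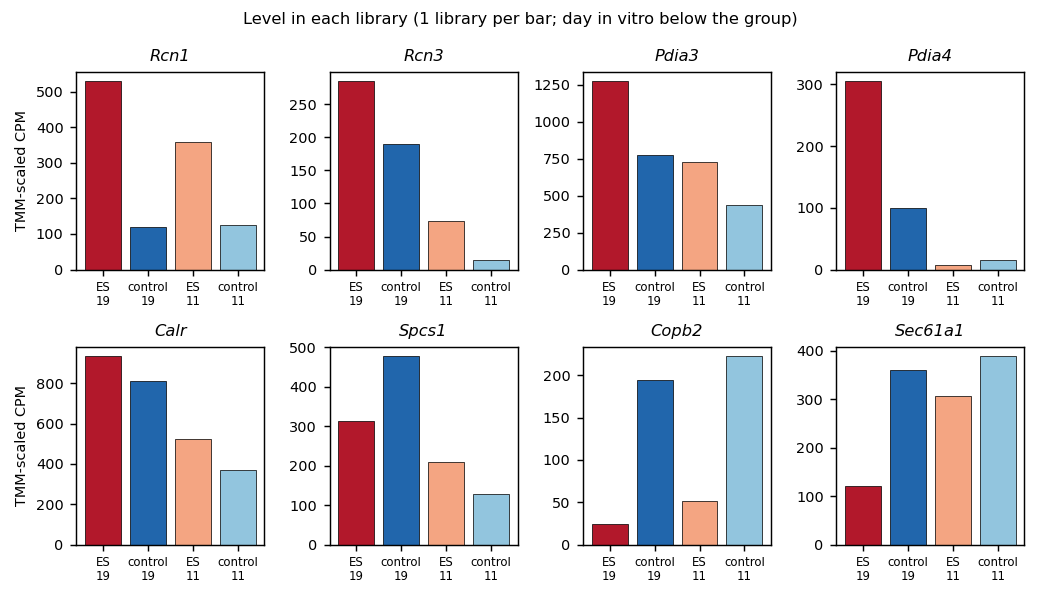
TMM-scaled CPM of 8 genes in each library, 1 bar per library, from ES at 19 DIV on the left to control at 11 DIV on the right. Rcn1 is high in the 2 ES libraries (529 and 359 CPM), Pdia3, Pdia4, Calr and Rcn3 are high at 19 DIV, and Copb2 is low in the 2 ES libraries (24.3 and 51.3 CPM).

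Among the lectin chaperones and disulfide isomerases, the genes highest at 19 DIV were Pdia3, Calr and Pdia4. Pdia3, the isomerase that works with calnexin and calreticulin on glycoproteins (chromosome 2, 121413775 to 121438687, plus strand), had 1272 CPM in ES at 19 DIV, 777 CPM in control at 19 DIV, 729 CPM in ES at 11 DIV and 433 CPM in control at 11 DIV. It was higher at the later day in each treatment and higher in ES on each day. The later level was 1.75 times the earlier one in ES cultures (0.961 to 3.31) and 1.79 times in control cultures (0.836 to 4.1). The ES level was 1.64 times control at 19 DIV (0.963 to 2.86) and 1.68 times at 11 DIV (0.788 to 3.75), so all 4 intervals included equality.

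Calr, calreticulin, a calcium-binding lectin chaperone (chromosome 8, 84841850 to 84846934, minus strand), had 934 CPM in ES at 19 DIV, 809 CPM in control at 19 DIV, 525 CPM in ES at 11 DIV and 371 CPM in control at 11 DIV. Its order was the same as that of Pdia3. The later level was 1.78 times the earlier one in ES cultures (0.88 to 3.84) and 2.18 times in control cultures (0.985 to 5.27). Counts of Calr lay within 5% of those of Calu, a calcium-binding protein gene on another chromosome, in every library. The pair was found by a search of all rows for counts this close to those of a member. Whether any reads were counted for both genes was not tested.

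Pdia4, a disulfide isomerase of the ER lumen (chromosome 6, 47796141 to 47813430, minus strand), had 305 CPM (2436 reads) in ES at 19 DIV, 100 CPM (690 reads) in control at 19 DIV, 7.93 CPM (47 reads) in ES at 11 DIV and 15.4 CPM (89 reads) in control at 11 DIV. Both later libraries stood far above both earlier ones. The later level was 38.4 times the earlier one in ES cultures, with a lower interval end of 1.38, and 6.52 times in control cultures, with a lower end of 0.267. It did not pass the spread-adjusted rule at 99% in either. At 19 DIV the level in ES was 3.05 times that of control (0.783 to 17.6).

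The other members of this group differed less or ran the other way. Canx, calnexin, the membrane-bound partner of calreticulin, had 416 CPM in ES at 19 DIV, 442 CPM in control at 19 DIV, 558 CPM in ES at 11 DIV and 646 CPM in control at 11 DIV, lower at the later day in each treatment (0.746 times in ES cultures, 0.316 to 1.76, and 0.684 times in control cultures, 0.304 to 1.51). Its ES to control ratio was 0.941 at 19 DIV (0.41 to 2.18) and 0.863 at 11 DIV (0.41 to 1.8). Pdia6 had 272 CPM in ES and 284 CPM in control at 19 DIV, and 213 CPM in ES and 276 CPM in control at 11 DIV. The 3 genes with an exact ERSE, Calr, Canx and Pdia6, had 3 different orders of the 4 libraries. The intervals given for Calr and Canx all included equality, so these orders are not set apart from the spread between libraries. Any part of the ERSE in these levels was not tested. P4hb, protein disulfide isomerase itself and a subunit of collagen prolyl hydroxylase, had 296 CPM in ES and 199 CPM in control at 19 DIV, and 264 CPM in ES and 390 CPM in control at 11 DIV. Pdia5 had 134 reads in control at 11 DIV and 0 in the other 3 libraries, fewer reads than 1 spread factor. The summed level of the 8 genes was 3497 CPM in ES at 19 DIV, 2611 CPM in control at 19 DIV, 2296 CPM in ES at 11 DIV and 2156 CPM in control at 11 DIV. In ES cultures it was 1.52 times as high at 19 as at 11 DIV (1.08 to 2.16) and in control cultures 1.21 times (0.844 to 1.75). At 19 DIV it was 1.34 times as high in ES as in control (0.996 to 1.81).

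Of the 15 translocon and signal peptidase genes, 6 had both ES libraries below both control libraries, against 14.5% of all genes: Sec61a1, Sec61b, Ssr2, Ssr3, Sec11a and Spcs3. Sec61a1, the pore-forming subunit of the Sec61 channel (chromosome 6, 88503579 to 88518905, minus strand), had 122 CPM in ES at 19 DIV, 361 CPM in control at 19 DIV, 306 CPM in ES at 11 DIV and 388 CPM in control at 11 DIV. Only the ES library at 19 DIV stood clearly below the other 3. It was 0.338 times control at 19 DIV (0.0797 to 1.14), 0.789 times control at 11 DIV (0.284 to 2.12), and 0.397 times its earlier level in ES cultures (0.0809 to 1.6). Sec61b, the small beta subunit, had 127 CPM in ES and 234 CPM in control at 19 DIV, and 106 CPM in ES and 204 CPM in control at 11 DIV. Sec61g, the gamma subunit, had 276 CPM in ES and 242 CPM in control at 19 DIV, and 421 CPM in ES and 457 CPM in control at 11 DIV, and so followed the day. The later level was 0.657 times the earlier one in ES cultures (0.229 to 1.85) and 0.53 times in control cultures (0.177 to 1.47).

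Sec62 and Sec63 encode partners of the channel. Sec62 had 571 CPM in ES and 770 CPM in control at 19 DIV, and 511 CPM in ES and 429 CPM in control at 11 DIV. Sec63 had 248 CPM in ES and 200 CPM in control at 19 DIV, and 80 CPM in ES and 159 CPM in control at 11 DIV. Of the translocon-associated Ssr genes, Ssr3 had 177 CPM in ES and 282 CPM in control at 19 DIV, and 203 CPM in ES and 315 CPM in control at 11 DIV. Ssr1 stood apart in a single library, with 209 CPM in ES and 55.1 CPM in control at 19 DIV, and 229 CPM in ES and 252 CPM in control at 11 DIV. It was 0.219 times its earlier level in control cultures (0.0156 to 1.33). Spcs1, a subunit of signal peptidase (chromosome 14, 30999826 to 31001672, minus strand), had 313 CPM in ES at 19 DIV, 477 CPM in control at 19 DIV, 210 CPM in ES at 11 DIV and 129 CPM in control at 11 DIV. In control cultures the later level was 3.7 times the earlier one, and the 95% interval of 1.07 to 18.7 excluded equality, although the 99% interval of the rule did not. In ES cultures it was 1.49 times (0.453 to 5.76). Spcs2, another subunit, had 192 CPM in ES and 221 CPM in control at 19 DIV, and 148 CPM in ES and 66.8 CPM in control at 11 DIV. Sec11c, a catalytic subunit, had 1 read in ES at 19 DIV against 375 in control, and 420 reads at 11 DIV in ES against 847 in control. Spcs3 had 0 reads at 19 DIV in ES against 130 in control, and 1 read at 11 DIV in ES against 176 in control, so that its whole signal was below 1 spread factor per library. The summed level of the 15 genes was 0.816 times control at 19 DIV (0.603 to 1.1; 2615 CPM in ES and 3205 CPM in control) and 0.884 times at 11 DIV (0.636 to 1.23; 2595 CPM in ES and 2935 CPM in control).

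COPI genes had ES to control ratios on both sides of equality on each day. None passed the spread-adjusted rule, and every interval given here for them included equality. Copb2, the beta-prime subunit (chromosome 9, 98563721 to 98588382, plus strand), had 24.3 CPM (194 reads) in ES at 19 DIV, 194 CPM (1340 reads) in control at 19 DIV, 51.3 CPM (304 reads) in ES at 11 DIV and 222 CPM (1288 reads) in control at 11 DIV. The ES libraries were far below the controls on both days, at 0.125 times control at 19 DIV (0.00137 to 1.2) and 0.231 times at 11 DIV (0.0131 to 1.5). Copz1, the zeta subunit, had 19.7 CPM in ES and 135 CPM in control at 19 DIV, and 41.5 CPM in ES and 113 CPM in control at 11 DIV, also lower in both ES libraries. Copa, the alpha subunit and direct partner of beta-prime in the coat (chromosome 1, 172082529 to 172122330, plus strand), had 395 CPM in ES at 19 DIV, 254 CPM in control at 19 DIV, 278 CPM in ES at 11 DIV and 293 CPM in control at 11 DIV. It was 1.56 times control at 19 DIV (0.591 to 4.47) and 0.949 times at 11 DIV (0.31 to 2.89, and above equality when scaled by total counts). Copg1, a gamma subunit, had 34.1 CPM in ES and 91.4 CPM in control at 19 DIV, and 156 CPM in ES and 63.7 CPM in control at 11 DIV. Copg2, its paralogue, had 60.4 CPM in ES and 22.2 CPM in control at 19 DIV, and 61.3 CPM in ES and 70.9 CPM in control at 11 DIV, but its counts are uncertain because the gene Mest overlaps its 3' end on the other strand. Cope had 53.2 to 123 CPM and Copb1 13.3 to 131 CPM over the 4 libraries. Copz2 had 5 reads at 19 DIV in ES against 45 in control, and 0 at 11 DIV in ES against 82 in control. As a sum the 8 genes were at 0.796 times control at 19 DIV (0.437 to 1.45; 707 CPM in ES and 887 CPM in control) and 0.784 times at 11 DIV (0.417 to 1.46; 724 CPM in ES and 924 CPM in control).

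COPII genes were mostly at low counts and scattered. Sec31a, of the outer coat, had 194 CPM in ES and 112 CPM in control at 19 DIV, and 115 CPM in ES and 199 CPM in control at 11 DIV. Sec13, its partner in the outer coat, had 139 CPM in ES and 92.1 CPM in control at 19 DIV, and 123 CPM in ES and 108 CPM in control at 11 DIV. The GTPase-activating subunits Sec23a and Sec23b had 44.0 to 74.3 CPM and 4.56 to 89.8 CPM. The 4 cargo-binding Sec24 paralogues did not move together. Sec24c was highest in control at 19 DIV, with 155 CPM against 26.1 to 41.0 CPM in the other libraries, Sec24d and Sec24b were highest in ES at 19 DIV, with 39.6 and 26.2 CPM, and Sec24a had 16.7 CPM in control at 11 DIV and 35.2 to 76.7 CPM elsewhere. Sec16a, a scaffold of ER exit sites, had 0 reads in control at 19 DIV and 340 to 401 in the other 3 libraries. With 0 put at 3 reads, its level in ES at 19 DIV would be at least 97.8-fold higher if reads were counted separately. The spread between libraries was far above that of separately counted reads, so this is not a bound here. The spread-adjusted interval against control at 19 DIV had a lower end of 0.0722 and so included equality. Sec23ip, which binds Sec23, had 26.0 CPM in ES and 100 CPM in control at 19 DIV, and 63.3 CPM in ES and 30.9 CPM in control at 11 DIV. The summed level of the 12 genes stayed between 571 and 694 CPM in the 4 libraries, and all 4 of its ratios had intervals that included equality, with ends between 0.479 and 2.58.

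Of the p24 cargo receptors, Tmed9 and Tmed10 carried the most reads. Tmed9 (chromosome 13, 55573732 to 55597697, plus strand) had 820 CPM in ES at 19 DIV, 673 CPM in control at 19 DIV, 458 CPM in ES at 11 DIV and 583 CPM in control at 11 DIV. It was higher at the later day in each treatment, 1.79 times in ES cultures (0.84 to 4.1) and 1.15 times in control cultures (0.558 to 2.44). Against control it was at 1.22 times at 19 DIV (0.659 to 2.29) and 0.786 times at 11 DIV (0.349 to 1.74). Tmed10 had 236 CPM in ES and 361 CPM in control at 19 DIV, and 190 CPM in ES and 292 CPM in control at 11 DIV, lower in ES on both days (0.654 times, 0.227 to 1.81, and 0.651 times, 0.176 to 2.2). Single libraries set the low values of Tmed1 (1 read in control at 11 DIV, 335 to 573 in the other 3), Tmed5 (46 reads in control at 19 DIV, 520 to 671 in the other 3) and Tmed2 (160 reads in control at 11 DIV, 567 to 672 in the other 3). Tmed3, Tmed4, Tmed7 and Tmed8 had at most 64.7 CPM in any library. Of the SNAREs of ER to Golgi fusion, Sec22b had 18.1 to 29.4 CPM and Sec22c had 0 reads in ES at 11 DIV. Sec22a had 167 and 161 reads in the controls at 19 and 11 DIV and 0 in both ES libraries, so that its whole signal was below 1 spread factor per library.

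**Figure D3:**
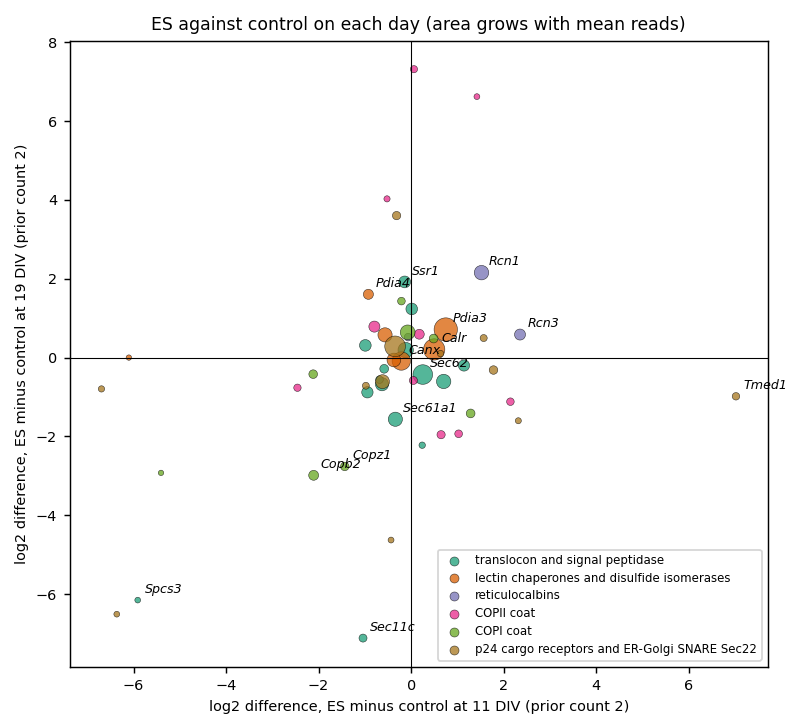
log2 difference of ES minus control at 11 DIV (x axis) and at 19 DIV (y axis) for the 55 genes that averaged 10 reads or more, with a prior count of 2, coloured by role and with an area that grows with mean reads. Large points lie near the centre, Rcn1 lies to the upper right, Copb2 and Copz1 lie to the lower left, and the extreme points are small.

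By the size rule 11 of the 55 genes with enough reads were higher and 11 lower in ES than in control at 11 DIV, against 28.9% higher and 29.6% lower among all genes. At 19 DIV 9 of 52 were higher and 12 lower, against 29.4% and 31.3%. Between days, 14 of 54 were higher and 9 lower at 19 DIV in control cultures, against 30.9% and 29.8%, and 8 of 51 were higher and 10 lower in ES cultures, against 30.9% and 30.5%. In each comparison and direction the share among the genes with enough reads was below that of all genes, but depth was not matched. The rule called a smaller share of all genes where reads were many. The 29 genes that averaged 500 reads or more gave 5 higher and 2 lower in ES at 11 DIV. All genes at that depth gave 15.8% and 16%, a minimum added after seeing the data. At that depth the shares of the 29 were not all below those of all genes, and the other comparisons are given further below. By the spread-adjusted rule Rcn1 was the only call, in the comparison at 19 DIV, where the rule called 0.13% of all genes higher and 0.13% lower. It called 0 of the 60 genes at 11 DIV (0.102% of all genes higher and 0.214% lower), between days in control cultures (0.16% and 0.449%) and between days in ES cultures (0.162% and 0.253%).

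The median log2 difference over the 55 genes was -0.21 for ES against control at 11 DIV and -0.28 at 19 DIV, and it was -0.08 in control cultures and 0.16 in ES cultures for 19 against 11 DIV. The median over all 11665 genes with the same minimum was 0.00 in each. Over the 29 that averaged 500 reads or more the medians were -0.14, 0.19, 0.07 and 0.35 in the same order, against -0.05, 0.03, -0.01 and 0.05 over all 2963 such genes, so the sign turned at 19 DIV and in control cultures.

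**Figure D4:**
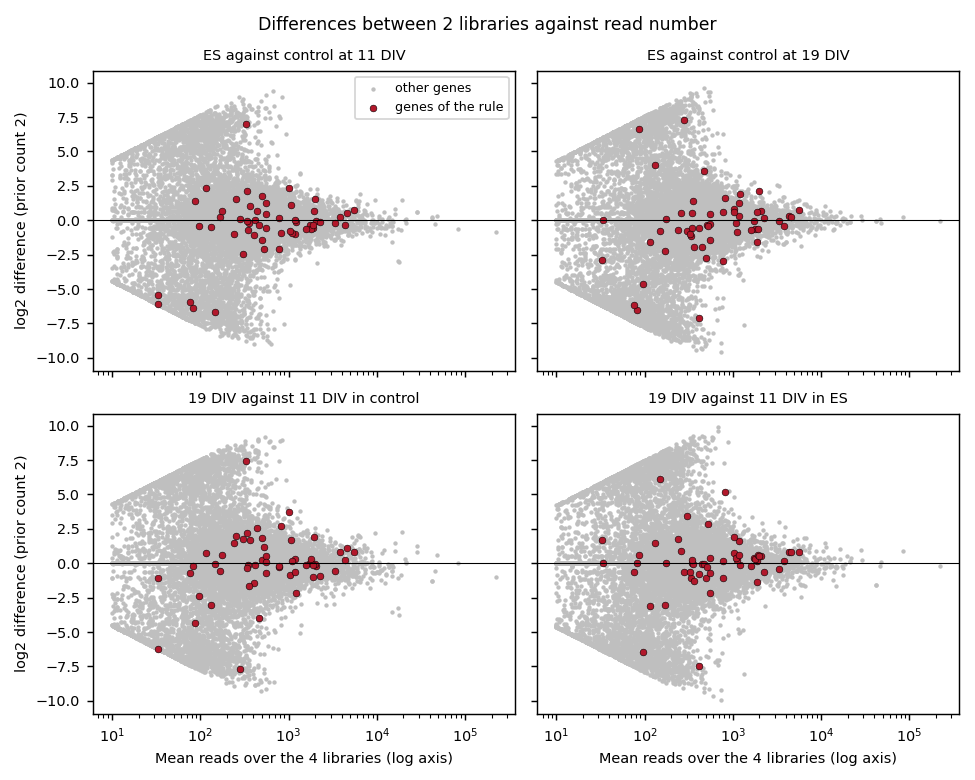
log2 difference (prior count 2) against the mean reads of the 4 libraries on a log axis, 1 panel per comparison, for the genes of the rule and for all other genes that averaged 10 reads or more. The genes of the rule lie inside the cloud of other genes in each panel, and the cloud narrows as mean reads grow.

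Both ES libraries lay above both control libraries in 5 of the 55 genes (Rcn1, Sec13, Ssr4, Sec22b and Sec24b), against 13.6% of all genes with 50 reads in a library, and below both in 13, which is 23.6%, against 14.5%. Besides the 6 translocon and signal peptidase genes named above, the 13 were Copb2, Copz1, Copz2, Pdia6, Tmed10, Sec22a and Sec22c. Both libraries of 19 DIV lay above both of 11 DIV in 13 genes, against 15.6% of all genes. They were Pdia3, Pdia4, Calr, Rcn3, Sec62, Sec63, Spcs1, Spcs2, Sec23b, Copb1, Tmed4, Tmed7 and Tmed9. They lay below in 11, against 16.1% of all genes: Canx, Sec61g, Sec61a2, Ssr1, Sec11c, Sec16a, Sec23a, Copg2, Cope, Tmed5 and Tmed8.

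A test over the 4 libraries treats ES and day as additive factors, with 1 residual degree of freedom. In edgeR's quasi-likelihood test (two-sided, Benjamini-Hochberg adjustment over 10050 genes) no gene passed an adjusted p of 0.05 for ES or for day, 0.0% of all genes in either direction, and the smallest adjusted p among the 54 members tested was 1.0 for each factor. At an unadjusted p under 0.05 in this test there were 109 genes for ES, 1.08% of those tested, and 202 for day, 2.01%. For ES they included 2 of the 54 members, Rcn1 (log2 fold change 1.84) and Copb2 (-2.56). For day they included 3, Pdia4 (3.97), Rcn3 (2.84) and Calr (0.98). DESeq2 with the same design tested 12884 genes, 55 of them members, and gave 10136 an adjusted p, without which no gene could be called. For ES DESeq2 called 378 genes (1.2% higher and 1.74% lower of 12884 tested). They included Rcn1 higher (adjusted p = 5e-05), Copb2 lower (adjusted p = 0.000457) and Sec22a lower (adjusted p = 0.0474). The reads of Sec22a were below 1 spread factor in each library. For day DESeq2 called 668 genes (2.65% higher and 2.54% lower of 12884 tested). Higher were Pdia4 (adjusted p = 8.79e-06), Rcn3 (adjusted p = 0.00012), Calr (adjusted p = 0.00679) and Pdia3 (adjusted p = 0.0162), and Sec11c was lower (adjusted p = 0.0214). The 2 tools thus differed on every one of these 8 genes.

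Other genes of the pathway were taken from lists by function. Their counts by the size rule stand against the same shares of all genes, which were 28.9% higher and 29.6% lower for ES at 11 DIV and 29.4% and 31.3% for ES at 19 DIV. They were 30.9% and 29.8% between days in control cultures, and 30.9% and 30.5% between days in ES cultures. These shares were again not matched for depth. ER chaperones and unfolded protein response genes had a lower sum in ES than in control at 11 DIV: 11 of 26 were lower (42.3%, against 29.6% of all genes) and 5 higher (19.2%, against 28.9%), with a summed level of 3007 CPM in ES and 4456 CPM in control, a ratio of 0.675 (0.506 to 0.896). At 19 DIV 4 of 27 were higher and 6 lower, both below the shares of all genes, with sums of 5656 CPM in ES and 4753 CPM in control (1.19, 0.951 to 1.49). In ES cultures the later sum was 1.88 times the earlier one (1.41 to 2.53), with 10 of 26 genes higher (38.5%, against 30.9%) and 1 lower (3.85%, against 30.5%). In control cultures it was 1.07 times (0.826 to 1.38), with 8 of 27 higher and 4 lower (29.6% and 14.8%, against 30.9% and 29.8%). Hspa5, the central ER chaperone BiP, had 2071 CPM in ES at 19 DIV, 1385 CPM in control at 19 DIV, 1141 CPM in ES at 11 DIV and 1616 CPM in control at 11 DIV. Hsp90b1, the ER form of Hsp90, had 1141 CPM in ES at 19 DIV, 747 CPM in control at 19 DIV, 373 CPM in ES at 11 DIV and 446 CPM in control at 11 DIV. Its later level in ES cultures was 3.06 times the earlier one (1.42 to 7.43), past the spread-adjusted rule. An exact ERSE was present before the start of 6 of the 27 list genes in the promoter table, Hspa5 and Hsp90b1 among them.

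Signal recognition particle and oligosaccharyltransferase genes, 21 with enough reads, had 2 higher and 5 lower in ES at 11 DIV, 5 and 2 at 19 DIV, 4 and 4 between days in control cultures and 5 and 1 in ES cultures. Their highest share was 23.8%, below that of all genes in each comparison and direction. Their sums had intervals that included equality in all 4 comparisons. Magt1, a transferase subunit, had 698 CPM in ES and 323 CPM in control at 19 DIV, and 268 CPM in ES and 247 CPM in control at 11 DIV. Srp14, of the recognition particle, had 247 CPM in ES and 383 CPM in control at 19 DIV, and 224 CPM in ES and 326 CPM in control at 11 DIV. Partners of the COPI and COPII coats had 8 higher and 13 lower of 44 in ES at 11 DIV and 11 and 11 of 45 at 19 DIV. Between days they had 4 higher and 10 lower of 44 in control cultures and 8 and 10 of 44 in ES cultures. The shares, 9.09% to 29.5%, were also below those of all genes throughout. The sums again had intervals that included equality. Kdelr1, a receptor that returns ER proteins from the Golgi, had 456 CPM in ES and 321 CPM in control at 19 DIV, and 361 CPM in ES and 237 CPM in control at 11 DIV. Arf1, the GTPase that recruits COPI, had 194 CPM in ES and 414 CPM in control at 19 DIV, and 374 CPM in ES and 268 CPM in control at 11 DIV. Relatives of calnexin and the disulfide isomerases had 6 higher and 4 lower of 18 in ES at 11 DIV, 3 and 4 at 19 DIV, 7 and 2 between days in control cultures and 3 and 3 in ES cultures. Their share was above that of all genes for higher calls in ES at 11 DIV (33.3%, against 28.9%) and between days in control cultures (38.9%, against 30.9%), and below it otherwise. Calu had 893 CPM in ES and 845 CPM in control at 19 DIV, and 502 CPM in ES and 382 CPM in control at 11 DIV. Ganab, a glucosidase subunit that trims glycans, had 253 CPM in ES and 194 CPM in control at 19 DIV, and 294 CPM in ES and 118 CPM in control at 11 DIV.

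Collagen folding and export genes, which act on the main cargo of fibroblasts, had a summed level of 3707 CPM in ES at 19 DIV, 3115 CPM in control at 19 DIV, 2902 CPM in ES at 11 DIV and 2176 CPM in control at 11 DIV. By the size rule 7 of 19 were higher and 4 lower in ES at 11 DIV, 2 and 2 of 20 at 19 DIV, and 6 and 2 of 20 between days in each treatment. Of these shares only the higher calls in ES at 11 DIV were above that of all genes (36.8%, against 28.9%). The later sum was 1.43 times the earlier one in control cultures (1.01 to 2.04) and 1.28 times in ES cultures (0.935 to 1.76). Serpinh1, the collagen chaperone Hsp47, had 1261 CPM in ES at 19 DIV, 873 CPM in control at 19 DIV, 886 CPM in ES at 11 DIV and 549 CPM in control at 11 DIV. Pcolce, an enhancer of procollagen cleavage, had 308 to 472 CPM. Collagens and other secreted matrix genes, the cargo itself, summed to 28069 CPM in ES and 23112 CPM in control at 19 DIV, and to 19388 CPM in ES and 14295 CPM in control at 11 DIV. By the size rule 8 of 22 were higher and 2 lower in ES at 11 DIV, 3 and 0 at 19 DIV, 8 and 3 between days in control cultures and 7 and 0 in ES cultures. The higher calls were 36.4% in ES at 11 DIV (against 28.9% of all genes), 13.6% at 19 DIV (against 29.4%). They were 36.4% between days in control cultures (against 30.9%) and 31.8% in ES cultures (against 30.9%). The lower calls were below the shares of all genes in all 4 comparisons. Sparc, a matrix protein, had 7391 CPM in ES and 8544 CPM in control at 19 DIV, and 6932 CPM in ES and 5582 CPM in control at 11 DIV. Col1a1 passed the spread-adjusted rule between days in ES cultures (2.09 times, 1.45 to 3.06) and Col1a2 in control cultures (2.34 times, 1.7 to 3.28).

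Levels of cell type markers also differed between the libraries. The 10 fibroblast markers, which share Col1a1, Col1a2, Col3a1, Dcn and Lum with the list of matrix genes, summed to 13084 CPM in ES and 9394 CPM in control at 19 DIV, and to 6869 CPM in ES and 5037 CPM in control at 11 DIV. Their ratios were 1.39 at 19 DIV (1.2 to 1.62), 1.36 at 11 DIV (1.09 to 1.71), 1.9 between days in ES cultures (1.58 to 2.31) and 1.86 in control cultures (1.51 to 2.32). By the size rule 1 of 9 was higher and 0 lower in ES at 11 DIV (against 28.9% and 29.6% of all genes). At 19 DIV 0 of 8 were higher and 0 lower (against 29.4% and 31.3%). Between days 3 of 9 were higher and 1 lower in control cultures (against 30.9% and 29.8%). In ES cultures 4 of 9 were higher and 2 lower (against 30.9% and 30.5%). Twist2 was at 0 in all libraries and Pdgfrb at 0 in ES at 19 DIV. The 10 neuronal markers summed to 1521 CPM in ES and 3900 CPM in control at 19 DIV, and to 4121 CPM in ES and 3046 CPM in control at 11 DIV, with Snap25 and Isl1 at 0 in ES at 19 DIV. The 10 Schwann cell markers summed to 10106 CPM in ES and 11910 CPM in control at 19 DIV, and to 7800 CPM in ES and 4748 CPM in control at 11 DIV, with Erbb3 at 2 reads in ES at 19 DIV and 0 elsewhere, and S100b at 0 in ES at 19 DIV. The 6 satellite glia markers summed to 1215 CPM in ES and 1762 CPM in control at 19 DIV and 1674 CPM in ES and 790 CPM in control at 11 DIV. The 9 macrophage markers with a row (25.2 to 143 CPM, Aif1 and Cx3cr1 at 0 in all libraries) and the 8 endothelial and mural markers (113 to 331 CPM, Pecam1 and Tek at 0 in all libraries) were low. The part that cell makeup had in the levels of Rcn1, Rcn3, Pdia3, Pdia4, Calr and Sec61a1 was not tested.

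**Figure D5:**
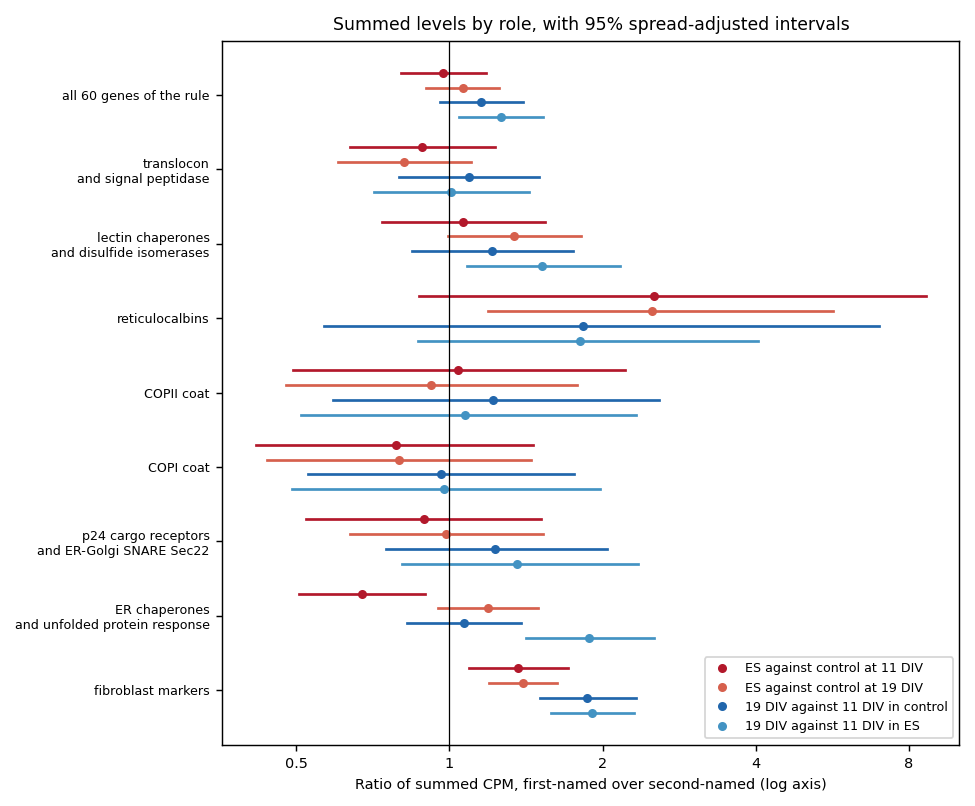
Ratio of summed CPM, first-named over second-named library, on a log axis, with 95% spread-adjusted intervals. Rows are the 60 genes, their 6 roles, the list of ER chaperones and unfolded protein response genes and the fibroblast markers. Sums weigh genes with many reads most, and Rcn1 made up most of the reticulocalbin sum in ES at 19 DIV. The intervals take the genes of a list as varying separately. Intervals exclude equality for the reticulocalbins at 19 DIV (1.19 to 5.68), for the lectin chaperones and disulfide isomerases between days in ES cultures (1.08 to 2.16), for all 60 genes between days in ES cultures (1.04 to 1.53), for the ER chaperones and unfolded protein response genes in ES at 11 DIV (0.506 to 0.896) and between days in ES cultures (1.41 to 2.53), and for all 4 ratios of the fibroblast markers.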

How the data were processed

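RNA of 4 pools of dorsal root ganglion explants was sequenced from libraries made with Lexogen's Quant-Seq kit (500 ng RNA each, per the labels' protocols). The authors deposited whole-number read counts by gene symbol, 1 table for each library, with 23282 rows. Bowtie2, bedtools and the build mm10 are named in the submitters' processing notes. Strand, duplicate reads and tool versions were not given in the sources used here. Overlapping genes could not be told apart: in 8 of the 60 genes another counted gene overlapped the last 500 bases. The libraries carry no replicate. A p-value for ES or day thus sets that difference against the departure of the 4 libraries from an additive model.

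TMM factors were computed over the 4 libraries (edgeR 4.0.16, R 4.3.3). Ratios of CPM carry exact Clopper-Pearson intervals on the counts, as deposited, which cover counting error alone, or divided by the spread factor, which adds the excess spread between the 2 libraries. A prior count of 2 went into log2 differences. The additive model was fitted with edgeR's quasi-likelihood test after filterByExpr, with Benjamini-Hochberg adjustment. The alternatives were DESeq2 1.42.0, its size factors, total counts, other read minimums, thinning, a prior count of 0.5, no filter and another gene window of the spread factor. The procedures were tested on simulated data. Other steps ran in Python 3.11.15 with scipy 1.17.1 for intervals, pandas 2.3.3 and numpy 2.4.6 for tables, and matplotlib 3.10.9 for plots. Gene positions are from GENCODE M21 (GRCm38, the assembly of mm10), and promoters from RefSeq.

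The members and lists were chosen with earlier results of these data known. A naming rule took the 12 members with the highest mean CPM and the 2 furthest above and below equality per comparison by the spread-adjusted interval. It also took any past the spread-adjusted rule, and per list the 2 highest and up to 2 past that rule. Other members are named within their role.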

Additional observations from a re-analysis of the deposited data

Results flagged for a closer look

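Neuronal and Schwann cell markers, which stand beside the results on the secretory genes, had summed ES to control ratios on opposite sides of equality on the 2 days, with intervals that excluded it. Neuronal markers were 1.35 times control at 11 DIV (1.01 to 1.81) and 0.39 times at 19 DIV (0.275 to 0.547). Schwann cell markers were 1.64 times control at 11 DIV (1.32 to 2.05) and 0.848 times at 19 DIV (0.729 to 0.988). Each ratio rests on 2 libraries, and the difference between the days was not tested. The intervals take the markers of a cell type as varying separately and are too narrow if these move together. The interval ends of 1.01 and 0.988 lie close to equality. No group had 4 or more libraries, so single libraries could not be checked against others of their group.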

How the results depend on the processing

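Under DESeq2's size factors, total counts, thinning to the smallest total and a minimum of 20 reads, the counts by the size rule stayed within 1.5 times, and the median log2 differences and summed ratios stayed inside their 95% intervals under every alternative run for them. Total counts moved the median of the 2963 genes averaging 500 reads or more by 0.13 on the log2 scale in both comparisons with control at 11 DIV. There the summed ratio for ES against control was 1.07 in place of 0.973, the median for 19 against 11 DIV in control cultures was 0.06 in place of -0.08, and Copa, Sec61g, Sec61a1 and Rcn1 crossed equality in 1 comparison each. A minimum of 200 reads left 5 genes lower in ES at 11 DIV and 5 lower between days in control cultures, since fewer genes were counted. With only the genes of at least 500 mean reads, also fewer, the counts higher and lower were 5 and 2 for ES at 11 DIV, 4 and 3 for ES at 19 DIV (15.6% and 14.1% of all such genes), 7 and 1 between days in control cultures (17.2% and 16.7%) and 4 and 3 in ES cultures (18% and 15.3%). The spread-adjusted rule gave 0 genes in place of Rcn1 at 19 DIV with the factor from genes of 200 to 1000 reads. With a 95% in place of a 99% interval it added 1 gene between days in control cultures, Spcs1, and 1 in ES cultures, Pdia4. DESeq2 called 378 genes for ES and 668 for day where edgeR called 0 with each filter and scaling, and the cause was not tested. No paired analysis was possible because each group has 1 library and the labels give no replicate numbers, and leaving out a library leaves the additive model no residual degree of freedom. Depth limits low genes most: the level of Pdia4 in ES at 11 DIV rests on 47 reads.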

Other observations

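Copg2 and Mest, which overlap at their 3' ends on opposite strands, had counts within 1 read of each other in the ES library of 19 DIV and the control library of 11 DIV. Copg2 had 482, 153, 363 and 411 reads and Mest 481, 23, 328 and 410 reads in ES at 19 DIV, control at 19 DIV, ES at 11 DIV and control at 11 DIV. The pair was chosen after its values were seen. Tmed5 and Mtf2 overlap in the same way and did not match: Tmed5 had 671, 46, 520 and 633 reads and Mtf2 383, 397, 25 and 581 reads in the same order. Calr had 7461, 5579, 3108 and 2151 reads and Calu, on another chromosome, 7129, 5828, 2971 and 2213 reads.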
